A study of Mus musculus with 9 samples.

Results

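DNA replication genes were followed across 3 kinds of mouse leukemia. The set was a list of 46 genes for S-phase entry, origin licensing, the replication fork, nucleotide supply and chromatin at the fork. Each was represented by its brightest probe set, judged by the average of the 9 Affymetrix arrays. Of the 46 genes, 45 were measured, among 18194 genes with a single annotated symbol. Chaf1a was not listed with a probe set of its own and was not analysed here. The 45 genes had 97 probe sets, and 33 genes had more than 1.

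The 9 arrays fell into 3 groups of 3. The Af10-deleted group (Cre) and the Af10-floxed group (MIT) both derived from primary MLL-AF9 leukemias, driven by a fusion of MLL with AF9, that were homozygous for a floxed allele of Af10. Af10, encoded by Mllt10, is a partner of the histone methyltransferase DOT1L. Cells of the deleted group had received a tdTomato vector that also expressed Cre recombinase, and cells of the floxed group the same vector, MSCV-IRES-tdTomato, without Cre. Both were passed through secondary recipients and sorted for tdTomato. The Hoxa9-Meis1 group came from primary leukemias transduced with Hoxa9 and Meis1, and these cells were neither sorted nor otherwise treated. All leukemias had the strain background C57/BL6 X 129, and all RNA came from bone marrow harvested fresh. Ages, sexes and the number of mice or clones behind the arrays are not stated in the labels. Af10 deletion and Cre expression go together and cannot be told apart, and the fusion oncogene, the floxed allele, the transplant generation, the vector and the sort cannot be told apart in the comparisons with Hoxa9-Meis1.

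Replication starts at origins that are bound by the origin recognition complex and licensed in G1 phase, when Cdc6 and Cdt1 load the Mcm helicase. Cyclin E with its kinase and the E2F transcription factors bring cells into S phase, where Cdc45 and the GINS complex activate the helicase and polymerases copy the strands behind it. Most of these genes are known to be transcribed in a wave around the start of S phase, so in bulk tissue they are read as genes of cycling cells. Acute myeloid leukemias keep a fraction of such cycling blasts. In bulk RNA, fewer cycling cells and less RNA per cell cannot be told apart.

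Array quality and labels bear on all values below. The median intensity per array over all 45101 probe sets was 145.9 to 146.4 in the deleted, 151.5 to 152.9 in the floxed and 152.2 to 156.0 in the Hoxa9-Meis1 group. By this measure the deleted arrays lay below all others. Over the 18194 genes the medians were 7.79 to 7.81 (log2) in deleted, 7.75 to 7.82 in floxed and 7.74 to 7.78 in Hoxa9-Meis1 leukemias. There the deleted arrays lay above Hoxa9-Meis1 and overlapped floxed arrays. The part of these offsets in the results was not tested. Mllt10 was 10.00 ± 0.16 (log2, SD, n = 3) in the deleted group and 10.95 ± 0.40 in the floxed group, a difference of -0.95 (limma adjusted p = 0.0293), and whether its probe set lies within the deleted part was not tested. Hoxa9 was highest in the Hoxa9-Meis1 group, at 13.74 ± 0.14, but Meis1 was lowest there, at 6.87 ± 0.25, on a probe set whose place relative to the transduced Meis1 sequence is not given. Of 11 myeloid leukemia markers, Ptprc, a pan-leukocyte surface marker, was between 11.91 and 12.57 on every array, and Mpo, a myeloid granule enzyme, between 13.69 and 14.26, but others differed. Against Hoxa9-Meis1, 1 was higher and 2 lower in floxed leukemias, and 1 higher and 3 lower in deleted leukemias. Cd34, Kit, Hoxa9 and Meis1 were lower in deleted than in floxed leukemias, Cd34 by a difference of -3.57. The called shares in these 3 comparisons were 27.3%, 36.4% and 36.4%, against 8.89%, 15.5% and 6.85% of all genes. The summed intensity of the 11 was 55561 to 63049 in Hoxa9-Meis1, 38666 to 48802 in floxed and 44603 to 47165 in deleted leukemias. Hoxa9-Meis1 sums lay above both others without overlap, but they include the transduced Hoxa9. Its mean was 13.74 there, against 12.16 in floxed and 9.15 in deleted leukemias. The median deviations of the 11 genes overlapped, at 0.07 to 0.28 in Hoxa9-Meis1, -0.12 to 0.11 in floxed and -0.15 to 0.15 in deleted leukemias. The part of these markers in the results was not tested. Floxed replicate 5 had the widest difference of the Gapdh control sets, 3' end over 5' end, at 1.03 against 0.44 to 0.81 elsewhere, and Hoxa9-Meis1 arrays had 0.67 to 0.81. Deleted replicate 6 had a median shift of 0.22 (log2) over genes of chromosome 1, where 4 replication genes lie.

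Replication genes were expressed in all 3 groups and stood lower in Hoxa9-Meis1 leukemias than in either MLL-AF9 group. Against Hoxa9-Meis1, 12 of 45 were higher and 0 lower in floxed leukemias at a limma adjusted p under 0.05, a share of 26.7%. Over all genes, 8.89% were called in that comparison, 5.58% higher and 3.31% lower. In deleted leukemias 20 of 45 were higher and 0 lower, a share of 44.4%, where 15.5% of all genes were called, 9.27% higher and 6.23% lower. Without deleted replicate 6 and floxed replicate 5 together, 18 were higher there and 1, Orc1, was lower. Between deleted and floxed leukemias 0 were higher and 1 was lower, where 6.85% of all genes were called, 3.22% higher and 3.63% lower. At an unadjusted p under 0.05 this last comparison had 7 of the genes, 5 higher and 2 lower, against 22.1% of all genes.

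The difference was small and broad. The median over the 45 genes was 0.42 (log2) both in floxed and in deleted leukemias against Hoxa9-Meis1, where the medians over all genes were -0.01 and 0.05. The difference was above 0 for 43 of 45 genes in the floxed comparison and for 39 of 45 in the deleted one. Over all genes it was above 0 for 47.9% and 57.8%. Both comparisons share the same 3 Hoxa9-Meis1 arrays. The chosen probe sets were bright, with group means of 7.83 or more, so shares among bright genes are also given. Of 8683 genes with a mean of at least 8 (log2), 9.09% were higher in floxed and 14.5% higher in deleted leukemias. That level was chosen after the values were seen. The median differences of these bright genes were 0.09 and 0.12, and the difference was above 0 for 59.6% and 60.8%. All 3 floxed arrays lay above all 3 Hoxa9-Meis1 arrays for 30 genes and below them for 0, and over all genes these shares were 15.4% and 12.1%. The deleted arrays lay above for 29 and below for 0, with shares of 21.7% and 13.2% over all genes. The deleted and floxed arrays did not overlap for 13 genes, with deleted above for 8 and below for 5, where all genes gave 15.1% and 10.7%.

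Array by array, the 45 genes gave the same split. Their median deviation from each gene's mean was 0.15, 0.10 and 0.22 (log2) on deleted replicates 4, 5 and 6, and 0.08, 0.24 and 0.07 on floxed replicates 4, 5 and 6. On Hoxa9-Meis1 replicates 1, 2 and 3 it was -0.33, -0.22 and -0.26. All 6 MLL-AF9 arrays were above 0 and all 3 Hoxa9-Meis1 arrays below, with no overlap, while the deleted and floxed arrays overlapped. The lowest array was a Hoxa9-Meis1 array for 39 of 45 genes, or 86.7%, against 33.6% of all genes, and for 23 genes it was Hoxa9-Meis1 replicate 1. The highest array was never a Hoxa9-Meis1 array, as against 29.6% of all genes.

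**Figure D1:**
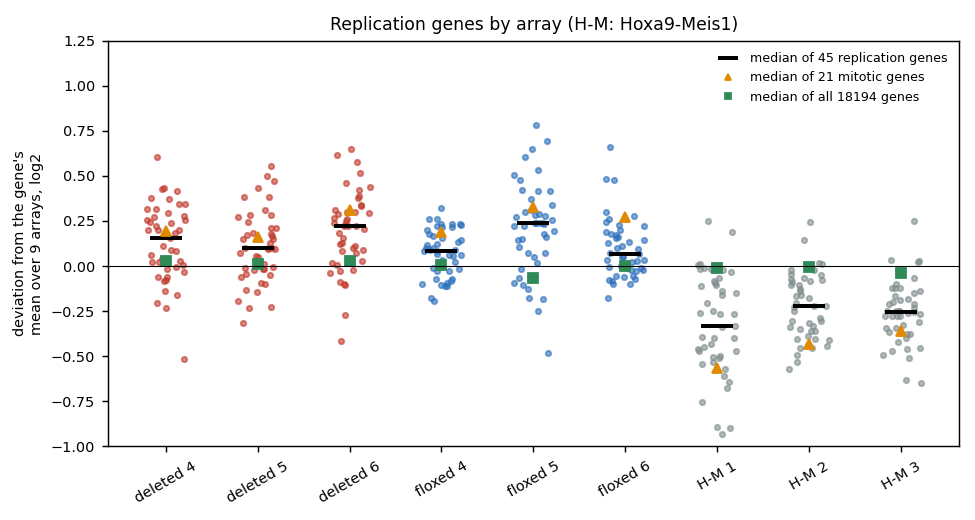
Deviation of each replication gene from its own mean over the 9 arrays (y axis, log2), by array (x axis, H-M is Hoxa9-Meis1). Each point is 1 gene, black bars are the medians of the 45 replication genes, triangles the medians of 21 mitotic genes and squares the medians of all 18194 genes. The replication medians run from 0.07 to 0.24 on the MLL-AF9 arrays and from -0.33 to -0.22 on the Hoxa9-Meis1 arrays.

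The number of genes that passed changed when single arrays were left out, as it did over all genes. Leaving out Hoxa9-Meis1 replicate 1 took the limma count from 12 to 4 in floxed leukemias and from 20 to 9 in deleted leukemias, and over all genes from 1618 to 681 and from 2821 to 1540. The floxed count was 6 without Hoxa9-Meis1 replicate 2, 6 without floxed replicate 4 and 7 without floxed replicate 5. The deleted count was 13 without Hoxa9-Meis1 replicate 2, 11 without deleted replicate 4 and 12 without deleted replicate 5. The floxed median without floxed replicate 5 was 0.29 (log2), and over all 6 fits that left out 1 array it lay between 0.29 and 0.46; the deleted median lay between 0.37 and 0.46. Under every alternative tried, Gins2, Pole2, Rfc3 and Rfc5 stayed called in both comparisons with Hoxa9-Meis1, and Cdc45, Tk1 and Uhrf1 in the deleted comparison.

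Promoters are shown for Pole2, Rfc5, Tk1 and Uhrf1, which of the genes with a promoter entry and called in both comparisons with Hoxa9-Meis1 had the largest differences in deleted leukemias. The sequences are those of RefSeq on GRCm38.p6, each from 250 bases before to 50 bases after a transcription start and printed 5' to 3' on the gene's strand. Pole2 lies at chr12:69228141-69228440 (minus strand), Rfc5 at chr5:117388974-117389273 (minus) and Tk1 at chr11:117825965-117826264 (minus). Uhrf1 has 2 listed starts, with chr17:56303087-56303386 upstream and chr17:56304063-56304362 downstream (both plus). Capitals mark matches, on either strand, to the E2F motif (TTCCCGC or TTGGCGC or TTCGCGC or TTGCCGC) or to the NF-Y motif (CCAAT); the CHR motif (TTTGAA or TTCGAA) was searched too.
Pole2: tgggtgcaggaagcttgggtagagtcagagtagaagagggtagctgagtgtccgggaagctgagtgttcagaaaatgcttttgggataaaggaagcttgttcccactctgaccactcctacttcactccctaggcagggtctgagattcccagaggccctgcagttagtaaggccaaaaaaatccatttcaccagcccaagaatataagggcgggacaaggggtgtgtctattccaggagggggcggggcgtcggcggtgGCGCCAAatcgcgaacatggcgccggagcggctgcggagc
Rfc5: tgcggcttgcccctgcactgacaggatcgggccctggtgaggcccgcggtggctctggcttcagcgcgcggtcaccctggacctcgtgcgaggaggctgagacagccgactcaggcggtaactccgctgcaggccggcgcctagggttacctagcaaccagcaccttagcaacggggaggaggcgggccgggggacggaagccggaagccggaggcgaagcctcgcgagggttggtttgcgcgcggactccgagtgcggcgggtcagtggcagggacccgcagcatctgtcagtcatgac
Tk1: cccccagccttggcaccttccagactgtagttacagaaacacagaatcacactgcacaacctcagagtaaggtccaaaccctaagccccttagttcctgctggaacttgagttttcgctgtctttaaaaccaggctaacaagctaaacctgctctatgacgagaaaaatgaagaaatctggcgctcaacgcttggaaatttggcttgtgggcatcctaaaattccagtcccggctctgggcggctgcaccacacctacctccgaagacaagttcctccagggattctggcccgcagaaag
Uhrf1 (upstream start): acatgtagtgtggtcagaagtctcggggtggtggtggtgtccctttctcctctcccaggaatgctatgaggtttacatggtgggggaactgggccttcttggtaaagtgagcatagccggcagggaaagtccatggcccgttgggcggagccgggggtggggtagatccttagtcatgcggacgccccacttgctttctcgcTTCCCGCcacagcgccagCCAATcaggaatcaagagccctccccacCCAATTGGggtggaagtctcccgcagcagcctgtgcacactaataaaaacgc
Uhrf1 (downstream start): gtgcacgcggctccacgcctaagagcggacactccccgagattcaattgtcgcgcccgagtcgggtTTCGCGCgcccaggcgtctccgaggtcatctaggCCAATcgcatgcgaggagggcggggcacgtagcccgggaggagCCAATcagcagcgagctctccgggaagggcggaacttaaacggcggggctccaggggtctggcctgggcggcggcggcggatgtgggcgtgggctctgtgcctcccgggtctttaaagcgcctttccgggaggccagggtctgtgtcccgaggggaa

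Pole2 carried 1 E2F match, which began 10 bases after the start, and Uhrf1 carried 1 in each promoter, beginning 48 and 184 bases before it. Rfc5 and Tk1 held none of the 3 motifs in these windows. The upstream Uhrf1 promoter had 3 CCAAT matches, of which 2 overlapped each other on opposite strands, and the downstream one had 2. Over the 36 replication genes with an entry, 21 (58.3%) had an E2F match in at least 1 promoter, against 16.0% of 14453 genes on the array with an entry and 10.9% of all 27025 genes of the table. NF-Y matches were in 58.3% of the replication genes, 42.0% of the array's genes and 41.1% of all, and CHR matches in 16.7%, 17.5% and 21.7%. An E2F match was present in 11 of 16 genes called against Hoxa9-Meis1 (68.8%) and in 10 of 20 not called. Ccne2, Gmnn, Mcm4, Gins1, Gins2, Gins4, Prim2, Pole and Rfc2 had no entry. A match is a description of these letters and not a measured site.

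**Figure D2:**
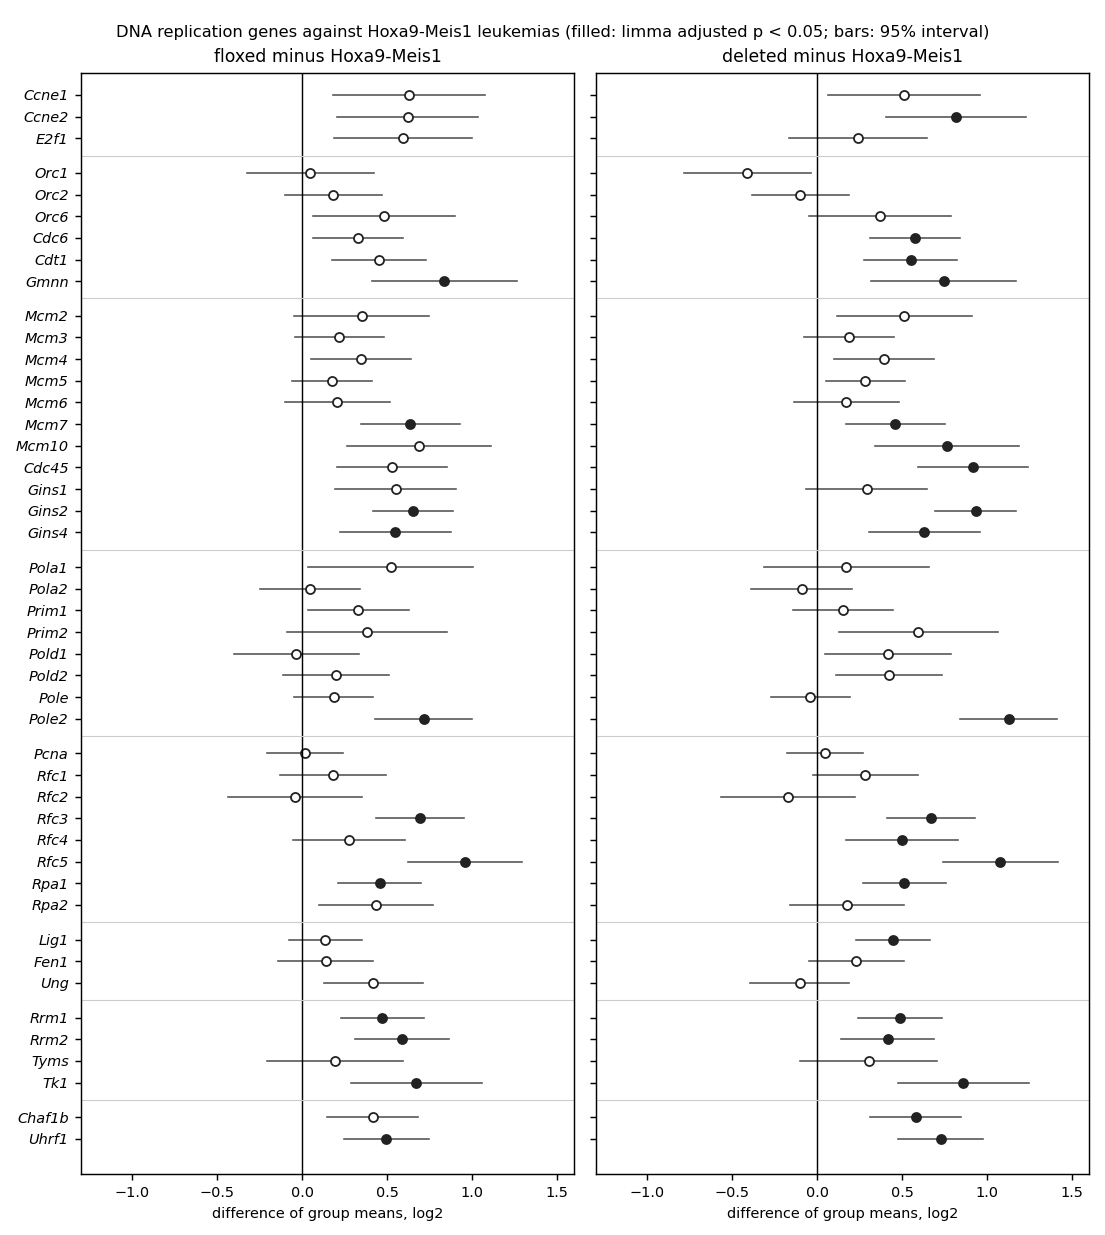
Difference of group means (x axis, log2) of each replication gene, grouped by role from S-phase entry at the top to chromatin at the fork, for floxed minus Hoxa9-Meis1 (left) and deleted minus Hoxa9-Meis1 (right). Bars are 95% intervals of the limma fit and filled points have an adjusted p under 0.05, 12 on the left and 20 on the right, all to the right of 0.

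Of 3 S-phase entry genes, 0 passed in floxed leukemias and 1, Ccne2, in deleted leukemias. Ccne2, a cyclin E that activates Cdk2, was 8.44, 8.90 and 9.08 (log2) on deleted replicates 4, 5 and 6, 8.36, 8.84 and 8.63 on the floxed replicates, and 7.94, 8.06 and 7.98 on the Hoxa9-Meis1 replicates. Both MLL-AF9 groups lay wholly above Hoxa9-Meis1 and overlapped each other. It was 1.76-fold higher in deleted than in Hoxa9-Meis1 leukemias (log2 0.82 ± 0.18 SE, limma adjusted p = 0.0176). The call was lost without deleted replicate 5 or 6 or Hoxa9-Meis1 replicate 1, with an adjusted p of up to 0.0655. Floxed leukemias differed from Hoxa9-Meis1 by 0.62 (limma adjusted p = 0.0702), and deleted from floxed by 0.20 with a 95% interval of -0.22 to 0.61. Ccne1, the other cyclin E, differed from Hoxa9-Meis1 by 0.63 in floxed and 0.51 in deleted leukemias (limma adjusted p = 0.0843 and 0.121). E2f1, a transcription factor of S-phase genes, differed by 0.59 and 0.24 (limma adjusted p = 0.0772 and 0.449). Its other probe sets gave 0.17 and 0.01 in floxed and 0.07 and 0.18 in deleted leukemias.

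Of 6 origin recognition and licensing genes, 1 was higher in floxed leukemias, Gmnn, and 3 in deleted leukemias, Gmnn, Cdc6 and Cdt1. Gmnn encodes geminin, which inhibits Cdt1. Its level was 11.02, 10.86 and 10.95 on deleted replicates, 10.93, 11.42 and 10.76 on floxed replicates, and 9.98, 10.15 and 10.48 on Hoxa9-Meis1 replicates, so that every MLL-AF9 array was above every Hoxa9-Meis1 array. The rise was 1.78-fold in floxed leukemias (log2 0.83 ± 0.19 SE, limma adjusted p = 0.027) and 1.67-fold in deleted leukemias (0.74 ± 0.19 SE, limma adjusted p = 0.0298). Both calls failed without Hoxa9-Meis1 replicate 1, at limma adjusted p = 0.108 and 0.111, and they held in 2 and 1 of the 6 fits that left out 1 array.

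Cdc6 and Cdt1, which load the helicase at origins, passed in deleted leukemias. Cdc6 was 10.73 ± 0.10 (SD, n = 3) in deleted, 10.48 ± 0.15 in floxed and 10.15 ± 0.09 in Hoxa9-Meis1 leukemias. None of these 3 groups overlapped another, but the lowest deleted array, at 10.6546, was only just above the highest floxed array, at 10.6508. Deleted leukemias exceeded Hoxa9-Meis1 by 1.49-fold (log2 0.57 ± 0.12 SE, limma adjusted p = 0.0119, and 0.0526 without Hoxa9-Meis1 replicate 1), and floxed ones by 0.33 (limma adjusted p = 0.124). Cdt1 was 1.46-fold higher in deleted leukemias (0.55 ± 0.12 SE, limma adjusted p = 0.0173, and up to 0.0684 without 1 array) and differed by 0.45 in floxed leukemias (limma adjusted p = 0.0524). The step from floxed to deleted was 0.25 for Cdc6, with a 95% interval of -0.02 to 0.51, and 0.09 for Cdt1, with an interval of -0.18 to 0.37.

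The origin recognition complex marks origins, and Orc1 is the subunit that binds late and cycles with G1. Orc1 leaned the other way. It was 7.60, 7.80 and 8.08 on deleted, 8.18, 8.53 and 8.15 on floxed and 8.31, 8.05 and 8.36 on Hoxa9-Meis1 replicates. The deleted arrays lay below all floxed arrays and overlapped Hoxa9-Meis1. The difference of deleted from floxed was -0.46, with a 95% interval of -0.83 to -0.09 (limma adjusted p = 0.14), and that from Hoxa9-Meis1 was -0.41 (limma adjusted p = 0.134). The latter was -0.54 (limma adjusted p = 0.0439) once deleted replicate 6 and floxed replicate 5 were both left out. Its other probe set gave -0.27 and -0.14. Orc2 and Orc6, other subunits of the complex, differed from Hoxa9-Meis1 by 0.18 and 0.48 in floxed and by -0.10 and 0.37 in deleted leukemias. Neither passed.

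All 11 helicase genes were above Hoxa9-Meis1 in both MLL-AF9 groups, as were all measured genes of S-phase entry, nucleotide supply and chromatin at the fork. In floxed leukemias 3 of 11 passed (27.3%) and in deleted leukemias 5 of 11 (45.5%). These shares were near the 26.7% and 44.4% of the 45 genes. Gins2, a subunit of the GINS complex that activates the helicase, was 11.54, 11.77 and 11.71 on deleted, 11.36, 11.41 and 11.40 on floxed, and 10.66, 10.81 and 10.75 on Hoxa9-Meis1 replicates. The 3 groups did not overlap. It was 1.57-fold higher in floxed (log2 0.65 ± 0.10 SE, limma adjusted p = 0.00673) and 1.91-fold higher in deleted leukemias (0.93 ± 0.10 SE, limma adjusted p = 0.000621). Its calls held in each of the 6 fits that left out 1 array, and its second probe set gave 0.85 and 1.08. Deleted and floxed leukemias differed by 0.28, with a 95% interval of 0.05 to 0.52 (limma adjusted p = 0.153).

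Gins4, another GINS subunit, was 1.46-fold higher in floxed (0.55 ± 0.15 SE, limma adjusted p = 0.0496) and 1.55-fold higher in deleted leukemias (0.63 ± 0.15 SE, limma adjusted p = 0.0198). Its floxed call held in 1 of 6 fits that left out 1 array, with an adjusted p of up to 0.176 without Hoxa9-Meis1 replicate 1, and its deleted call in 2 of 6, with up to 0.0788. Gins1, also of this complex, differed by 0.55 and 0.29 and did not pass on its brightest probe set. Its other set was higher by 1.07 and 1.14 (limma adjusted p over all probe sets = 0.0157 and 0.0072).

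Cdc45, the third component of the active helicase beside Mcm and GINS, was 10.11, 10.00 and 10.38 on deleted, 9.79, 9.60 and 9.93 on floxed and 9.09, 9.27 and 9.38 on Hoxa9-Meis1 replicates. The groups followed each other without overlap. Deleted leukemias were 1.88-fold above Hoxa9-Meis1 (log2 0.91 ± 0.14 SE, limma adjusted p = 0.00366), a call that held under every alternative. Floxed leukemias differed from Hoxa9-Meis1 by 0.53 (limma adjusted p = 0.0548) and from deleted ones by 0.39, with a 95% interval of 0.06 to 0.71 (limma adjusted p = 0.153). Its second probe set gave 0.01 and 0.10 against Hoxa9-Meis1. The 2 probe sets therefore disagreed for this gene.

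Mcm7 was the one subunit of the Mcm ring to pass, with 13.30, 13.16 and 13.13 on deleted, 13.22, 13.61 and 13.29 on floxed and 12.64, 12.80 and 12.78 on Hoxa9-Meis1 replicates. It was 1.55-fold higher in floxed (0.64 ± 0.13 SE, limma adjusted p = 0.0175, and 0.0757 without Hoxa9-Meis1 replicate 1) and 1.37-fold higher in deleted leukemias (0.46 ± 0.13 SE, limma adjusted p = 0.0418). The deleted call was lost in each of the 6 fits that left out 1 array, with an adjusted p of up to 0.142. Mcm2 to Mcm6 differed from Hoxa9-Meis1 by 0.17 to 0.35 in floxed and by 0.17 to 0.51 in deleted leukemias, without a call on the chosen probe sets, although other sets of Mcm3, Mcm4 and Mcm5 were called in deleted leukemias, and that of Mcm5 in floxed leukemias too. Mcm10, an initiation factor that binds the Mcm ring, was 1.69-fold higher in deleted leukemias (0.76 ± 0.19 SE, limma adjusted p = 0.0259, and up to 0.0884 without 1 array). In floxed leukemias it differed by 0.69 (limma adjusted p = 0.0538), and both of its other probe sets were called there, at 0.70 and 0.67.

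Of 8 polymerase and primase genes 1 passed in each comparison with Hoxa9-Meis1, and it was the same gene. Pole2, the second subunit of the leading-strand polymerase epsilon, was 10.71, 10.58 and 10.57 on deleted, 10.00, 10.41 and 10.22 on floxed and 9.43, 9.57 and 9.48 on Hoxa9-Meis1 replicates. Each deleted array exceeded each floxed array, and each floxed array exceeded each Hoxa9-Meis1 array. It was 1.64-fold higher in floxed (log2 0.71 ± 0.13 SE, limma adjusted p = 0.0103) and 2.18-fold higher in deleted leukemias (1.13 ± 0.13 SE, limma adjusted p = 0.000618). The 1.13 was the largest difference from Hoxa9-Meis1 among the 45 genes in deleted leukemias. Its step from floxed to deleted was 0.41, with a 95% interval of 0.13 to 0.70 (limma adjusted p = 0.0912). The second Pole2 probe set gave -0.09 there. Against Hoxa9-Meis1 that set gave 0.60 and 0.51, without a call (limma adjusted p over all probe sets = 0.102 and 0.13). Pole, the catalytic subunit of the same polymerase, differed by 0.18 and -0.04.

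Pold1, the catalytic subunit of the lagging-strand polymerase delta, was 11.93, 11.86 and 12.02 on deleted, 11.67, 11.17 and 11.62 on floxed and 11.62, 11.66 and 11.28 on Hoxa9-Meis1 replicates. The deleted arrays lay above all others, and floxed and Hoxa9-Meis1 arrays overlapped. Its difference of deleted from floxed, 0.45 with a 95% interval of 0.08 to 0.82, was the largest positive one of the 45 genes and did not pass (limma adjusted p = 0.143). Pold2, its partner subunit, differed by 0.22 there and by 0.20 and 0.42 from Hoxa9-Meis1.

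Pola1 and Pola2, of the polymerase alpha that starts each strand, were not called. Pola1 differed from Hoxa9-Meis1 by 0.52 in floxed and 0.17 in deleted leukemias, and floxed replicate 5, at 9.81, stood above the other 5 MLL-AF9 arrays, which had 8.79 to 9.20. Pola2 differed by 0.04 and -0.09. Prim1 and Prim2, the catalytic and large subunits of primase, differed by 0.33 and 0.38 in floxed and by 0.15 and 0.59 in deleted leukemias. A second probe set of Prim2 was higher by 1.20 and 1.15 (limma adjusted p over all probe sets = 0.00638 and 0.00446), so the choice of probe set decided whether this gene was called.

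The clamp loader rose in some subunits and not in others. Rfc5, a small subunit of the complex that opens the Pcna ring, was 10.61, 10.75 and 10.42 on deleted, 10.37, 10.37 and 10.67 on floxed and 9.30, 9.70 and 9.54 on Hoxa9-Meis1 replicates. Deleted and floxed arrays were mixed, and all lay above Hoxa9-Meis1. It was 1.94-fold higher in floxed (log2 0.96 ± 0.15 SE, limma adjusted p = 0.00587), the largest difference in that comparison, and 2.11-fold higher in deleted leukemias (1.08 ± 0.15 SE, limma adjusted p = 0.0019). Rfc3, another small subunit, was 1.62-fold higher in floxed (0.69 ± 0.11 SE, limma adjusted p = 0.00768) and 1.59-fold higher in deleted leukemias (0.67 ± 0.11 SE, limma adjusted p = 0.0053), and its second probe set gave 1.10 and 1.15. Both genes held in each of the 6 fits that left out 1 array.

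Rfc4 reached 1.41-fold in deleted leukemias (0.50 ± 0.15 SE, limma adjusted p = 0.0499), a call that was lost in every fit without 1 array, with an adjusted p of up to 0.161. Its other probe set gave 0.24 in deleted and 0.10 in floxed leukemias against Hoxa9-Meis1, without a call. Rfc1, the large subunit, differed from Hoxa9-Meis1 by 0.18 in floxed and 0.28 in deleted leukemias and passed only on other probe sets, in both comparisons. Rfc2 differed by -0.05 and -0.17, with Hoxa9-Meis1 arrays at 12.13, 12.12 and 11.60. Pcna, the sliding clamp, differed little. Its level was 13.26, 13.22 and 13.31 on deleted, 13.21, 13.31 and 13.18 on floxed and 13.25, 13.14 and 13.27 on Hoxa9-Meis1 replicates. All groups overlapped, and the 95% interval was -0.21 to 0.24 for floxed and -0.18 to 0.27 for deleted against Hoxa9-Meis1.

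Rpa1, the large subunit of the protein that coats single-stranded DNA, was 12.51 ± 0.06 in deleted, 12.45 ± 0.13 in floxed and 12.00 ± 0.07 in Hoxa9-Meis1 leukemias. The MLL-AF9 arrays did not overlap Hoxa9-Meis1. It was 1.37-fold higher in floxed (0.45 ± 0.11 SE, limma adjusted p = 0.0318) and 1.43-fold higher in deleted leukemias (0.51 ± 0.11 SE, limma adjusted p = 0.0134). The floxed call was lost in every fit without 1 array, with an adjusted p of up to 0.121, and the deleted call only without Hoxa9-Meis1 replicate 1, at 0.0572. Rpa2, its partner, differed by 0.43 and 0.17 and did not pass on its chosen probe set.

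Lagging-strand completion and uracil removal gave a call in each direction, in different comparisons. Lig1, the ligase that joins Okazaki fragments, was 11.90, 11.76 and 11.85 on deleted, 11.51, 11.49 and 11.57 on floxed and 11.44, 11.36 and 11.37 on Hoxa9-Meis1 replicates. The 3 groups did not overlap, and the wider step was the one from floxed to deleted. Lig1 was 1.36-fold higher in deleted than in Hoxa9-Meis1 leukemias (log2 0.44 ± 0.10 SE, limma adjusted p = 0.0146), a call lost without deleted replicate 4 or without Hoxa9-Meis1 replicate 2, with an adjusted p of up to 0.0585. The difference of deleted from floxed was 0.31, with a 95% interval of 0.09 to 0.53 (limma adjusted p = 0.0924). Fen1, the nuclease that trims Okazaki fragments, differed from Hoxa9-Meis1 by 0.14 and 0.23. Another Fen1 set was called at 0.58 and 0.67.

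Ung, the glycosylase that removes uracil from DNA, was the one gene called after Af10 deletion. It was 11.58, 11.53 and 11.25 on deleted, 11.88, 11.90 and 12.14 on floxed and 11.63, 11.50 and 11.54 on Hoxa9-Meis1 replicates. Deleted arrays lay below all floxed arrays and overlapped Hoxa9-Meis1. It fell 1.44-fold (log2 -0.52 ± 0.13 SE, limma adjusted p = 0.0436). The call was lost in each of the 6 fits that left out 1 array, with an adjusted p of up to 0.117 without deleted replicate 6. Ung has 1 probe set, and it lies on chromosome 5, whose genes had a median shift of 0.12 on floxed replicate 6, the highest Ung array.

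**Figure D3:**
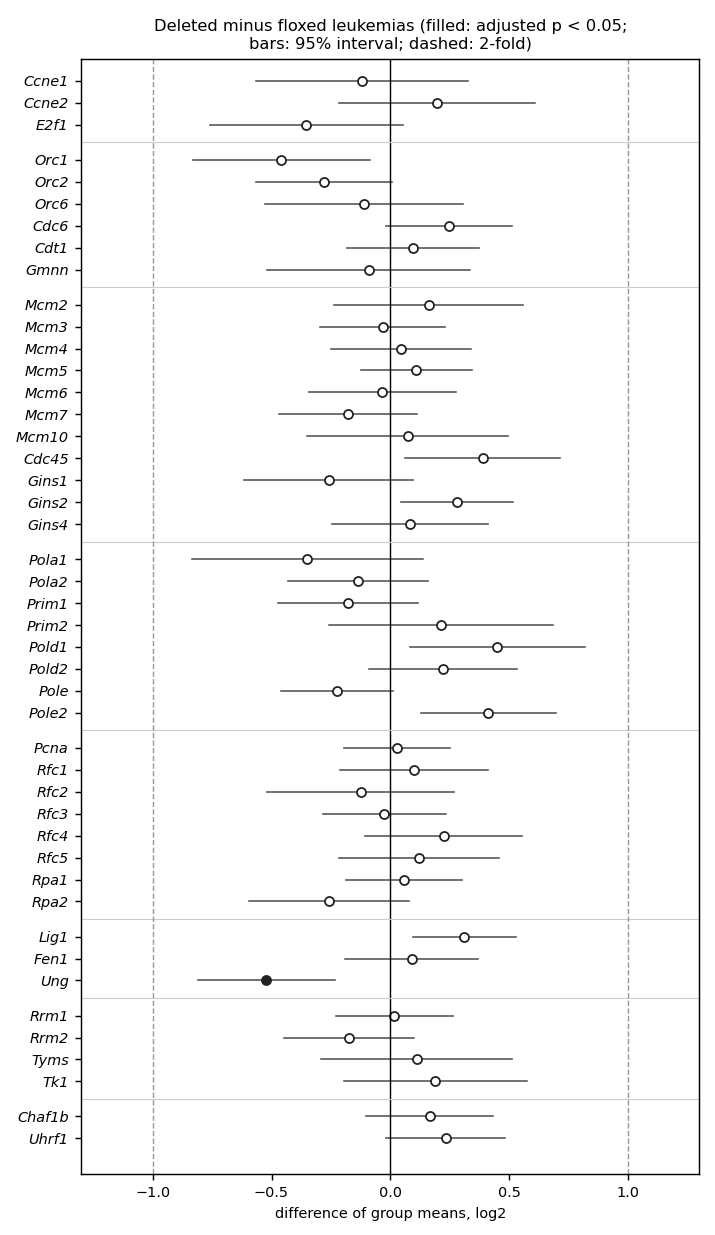
Difference of group means, deleted minus floxed (x axis, log2), for each replication gene in the same order. Bars are 95% intervals and the filled point, Ung at -0.52, is the one with a limma adjusted p under 0.05. All 45 intervals lie inside the dashed lines at -1 and 1.

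The comparison of deleted with floxed leukemias thus gave bounds rather than calls for 44 of the 45 genes. All 45 of the 95% intervals lay within 1 log2 unit of 0, from -0.83 for Pola1 to 0.82 for Pold1. Of the 45, 7 did not include 0. These 7 are the genes with an unadjusted p under 0.05, a level that 22.1% of all genes reached. The median difference was 0.06, beside 0.06 over all genes and 0.015 over the 8683 genes with a mean of at least 8 (log2). Of the 7, Pold1, Pole2, Cdc45, Lig1 and Gins2 were higher in deleted leukemias, by 0.28 to 0.45. Ung and Orc1 were lower, by 0.52 and 0.46 in size, and of the 7 only Ung was called. Without deleted replicate 6 and floxed replicate 5 together, 0 genes of the set passed. The 8 genes called in deleted but not in floxed leukemias against Hoxa9-Meis1 were Ccne2, Cdc6, Cdt1, Mcm10, Cdc45, Rfc4, Lig1 and Chaf1b. Not one of them passed in the test of deleted against floxed itself, where their differences were 0.07 to 0.39.

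Nucleotide supply was the role with the largest called share in floxed leukemias, 3 of 4 genes, and the same 3 passed in deleted leukemias. Tk1, the thymidine kinase of the salvage route, was 11.04, 11.05 and 10.96 on deleted, 10.90, 10.78 and 10.81 on floxed and 9.74, 10.45 and 10.29 on Hoxa9-Meis1 replicates. Hoxa9-Meis1 replicate 1 was far below the other 2 of its group, and no groups overlapped. Tk1 was 1.59-fold higher in floxed (log2 0.67 ± 0.17 SE, limma adjusted p = 0.0426) and 1.81-fold higher in deleted leukemias (0.86 ± 0.17 SE, limma adjusted p = 0.0106). The floxed call held in 1 of 6 fits without 1 array, with an adjusted p of up to 0.103, and the deleted call in all 6.

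Rrm2, the regulated subunit of ribonucleotide reductase, was 12.52, 12.50 and 12.51 on deleted, 12.58, 12.90 and 12.56 on floxed and 12.18, 11.99 and 12.12 on Hoxa9-Meis1 replicates. Floxed arrays were highest, by a narrow margin over deleted ones, and Hoxa9-Meis1 arrays lowest. The rise was 1.50-fold in floxed (0.59 ± 0.12 SE, limma adjusted p = 0.0192) and 1.33-fold in deleted leukemias (0.41 ± 0.12 SE, limma adjusted p = 0.0498). Leaving out Hoxa9-Meis1 replicate 2 gave adjusted p of 0.0779 and 0.167, and the deleted call was lost in each of the 6 fits. Rrm1, the large subunit, was 1.38-fold and 1.40-fold higher (0.47 and 0.49 ± 0.11 SE, limma adjusted p = 0.0292 and 0.0173). Without Hoxa9-Meis1 replicate 1 these were 0.113 and 0.0685. Tyms, which makes thymidylate, differed by 0.19 and 0.30 and did not pass on its chosen probe set, while 2 of its 3 other sets were higher by 0.88 and 0.70 in floxed leukemias (limma adjusted p over all probe sets = 0.0144 and 0.046).

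Both measured genes of chromatin at the fork were higher in deleted than in Hoxa9-Meis1 leukemias. Neither was called between deleted and floxed leukemias, where Uhrf1 differed by 0.23 and Chaf1b by 0.17. Uhrf1, which binds newly copied, hemimethylated DNA and recruits the methyltransferase Dnmt1, was 12.20, 12.14 and 12.19 on deleted, 11.96, 11.79 and 12.08 on floxed and 11.35, 11.52 and 11.48 on Hoxa9-Meis1 replicates. Its groups did not overlap. It was 1.41-fold higher in floxed (0.49 ± 0.11 SE, limma adjusted p = 0.0263, and 0.107 without Hoxa9-Meis1 replicate 1) and 1.65-fold higher in deleted leukemias (0.73 ± 0.11 SE, limma adjusted p = 0.00312). A second probe set gave 0.03 and 0.63 against Hoxa9-Meis1. Chaf1b, a subunit of chromatin assembly factor 1, was 1.49-fold higher in deleted leukemias (0.58 ± 0.12 SE, limma adjusted p = 0.0118) and differed by 0.41 in floxed leukemias (limma adjusted p = 0.0632). Its other, much dimmer probe set gave 0.12 in deleted and -0.09 in floxed leukemias against Hoxa9-Meis1, without a call.

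**Figure D4:**
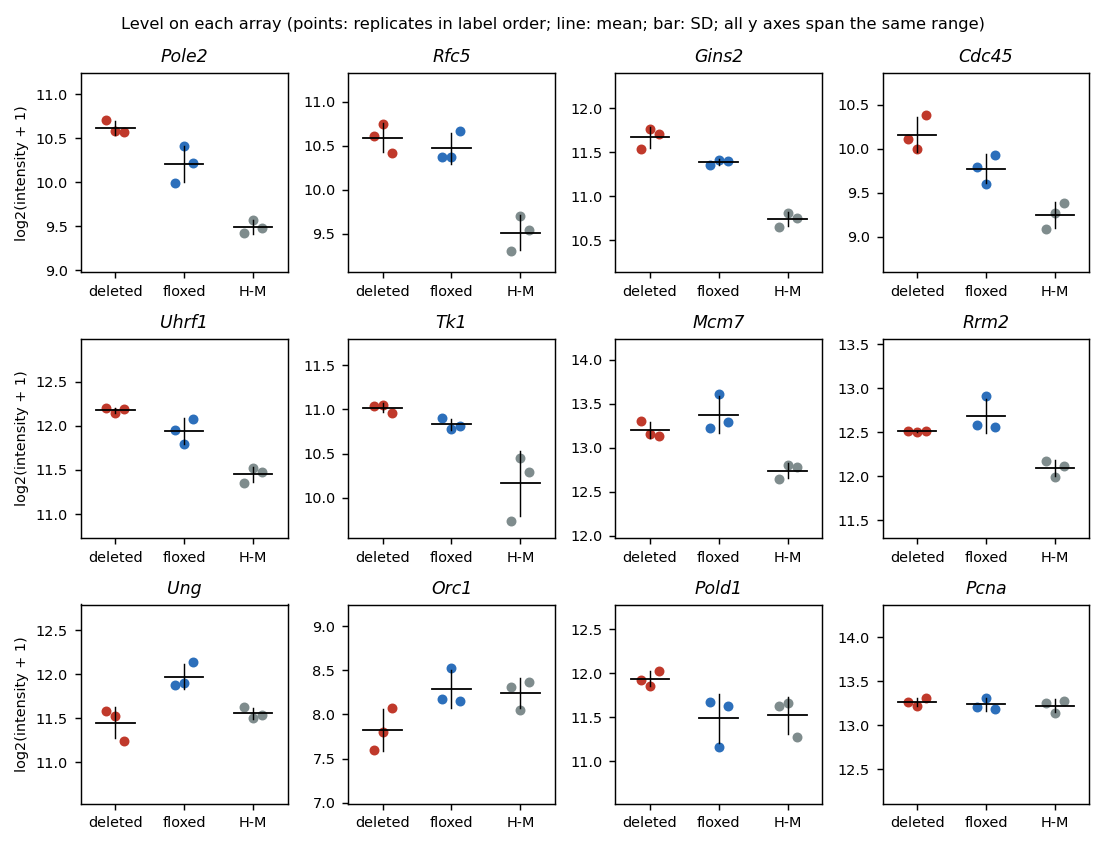
Level on each array (y axis, log2 of intensity + 1) of 12 replication genes in deleted, floxed and Hoxa9-Meis1 (H-M) leukemias. Points are arrays, horizontal lines group means and vertical bars SD (n = 3), and every panel spans the same range. Pole2, Rfc5, Gins2, Cdc45, Uhrf1, Tk1, Mcm7 and Rrm2 have all Hoxa9-Meis1 arrays lowest, while Ung, Orc1, Pold1 and Pcna do not.

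Over all probe sets the called shares were close to those over the chosen ones. In floxed leukemias 26 of the 97 probe sets (26.8%) were higher than in Hoxa9-Meis1 and 0 lower, against 4.94% and 4.07% of all 45101 probe sets. In deleted leukemias 39 sets (40.2%) were higher and 0 lower, against 7.19% and 7.82%. At least 1 set was higher for 18 of the 45 genes in floxed and 28 in deleted leukemias, and for 7.77% and 11.2% of all genes, with no match for the number of sets per gene. Between deleted and floxed leukemias 0 were higher and 1, that of Ung, was lower, against 2.4% and 3.76%. Of the called genes with several sets, 3 of 8 in floxed and 4 of 13 in deleted leukemias had every set called. The chosen set ended in _s_at or _x_at, a mark of probes that can bind several transcripts, for 11 genes, of which 3 were called against Hoxa9-Meis1, and 17 of the other 34 were called.

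Replication genes outside the 46 gave a like pattern. Of 49 other measured genes of replication, 12 were higher and 1 lower in floxed than in Hoxa9-Meis1 leukemias, 14 higher and 1 lower in deleted leukemias, and 1 higher and 1 lower in deleted than in floxed ones. Their medians were 0.37, 0.33 and -0.10 (log2). Calls in either direction made up 26.5%, 30.6% and 4.08% of these genes, against 8.89%, 15.5% and 6.85% of all genes. In floxed leukemias the largest rises were those of Atad5, which unloads Pcna (1.32), Dscc1, of a clamp loader for cohesion (1.15), Dbf4, the activator of the Cdc7 kinase (1.02), and the chromatin remodeler Hells (0.85). In deleted leukemias they were those of Dscc1 (1.17), the helicase Recql4 (1.13), the histone chaperone Asf1b (1.02) and the nuclease Exo1 (0.99). Wdhd1, which links the helicase to polymerase alpha, was the gene called in the other direction, at -0.53 and -0.75. After Af10 deletion Recql4 rose by 0.72 relative to floxed leukemias (limma adjusted p = 0.0114), and Dut, which keeps uracil out of DNA, fell by 0.46 (limma adjusted p = 0.0396).

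Genes of mitosis were set beside these as the next phase of the cycle. Of 21 measured, 15 were higher in floxed and 17 in deleted than in Hoxa9-Meis1 leukemias, 0 were lower, and 0 passed between deleted and floxed. Their median differences were 0.77, 0.65 and -0.04. The called shares were 71.4%, 81% and 0%, against 8.89%, 15.5% and 6.85% of all genes. Nusap1, a spindle protein (1.27 and 1.21), and the passenger protein Birc5 (1.13 and 0.81) led in floxed leukemias, with Aurkb (0.97) and Cenpa (0.90). Plk1 (1.17), Aurka (1.11) and Cdk1 (1.05) joined Nusap1 in deleted leukemias. Mki67, a marker of cycling cells, was bright and even, at 12.85 to 13.15 on the 9 arrays, and was not called.

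E2F, Rb and G1 regulators did not move as a block. Of 28 measured, 3 were higher and 2 lower in floxed than in Hoxa9-Meis1 leukemias, 5 higher and 2 lower in deleted ones, and 1 higher and 3 lower in deleted than in floxed ones. Their medians were 0.33, 0.26 and 0.01. Calls in either direction made up 17.9%, 25% and 14.3% of these genes, against 8.89%, 15.5% and 6.85% of all genes. Cdkn2c, an inhibitor of Cdk4 and Cdk6, was 12.40 ± 0.17 in deleted, 12.35 ± 0.10 in floxed and 9.94 ± 0.29 in Hoxa9-Meis1 leukemias, a difference of 2.46 and 2.40 from the last (limma adjusted p = 3.2e-05 and 7.91e-05). Cdkn1c, another inhibitor, was higher by 1.66 and 1.61. Ccnd1, a D cyclin, was higher by 1.65 in floxed leukemias and Ccnd3 by 1.39 in deleted ones, while the differences were -1.20 for Myc in floxed, -1.06 and -1.13 for E2f5, and -1.10 for Mycn in deleted leukemias. After Af10 deletion Ccnd1, Mycn and Cdk6, all promoters of G1 progression, fell by 1.27, 1.05 and 0.88, and Cdkn2a rose by 1.07 (limma adjusted p between 0.000547 and 0.0393).

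Markers of other cells were read on the same arrays, since the Hoxa9-Meis1 marrow was not sorted. The summed intensity of 8 erythroid markers was 574 to 585 in Hoxa9-Meis1, 580 to 631 in floxed and 580 to 676 in deleted leukemias, and alpha globin, Hba-a1, lay between 6.10 and 6.42 (log2) on all 9 arrays. Monocyte and macrophage markers (9 genes) summed to 17886 to 28598 in Hoxa9-Meis1 against 13543 to 17242 in floxed and 11425 to 14882 in deleted leukemias. These sums did not overlap between Hoxa9-Meis1 and the other groups, but the median deviations of the 9 genes did. In each comparison with Hoxa9-Meis1, 1 of 9 was lower and 0 higher. That share is 11.1%, against 8.89% of all genes called in floxed and 15.5% in deleted leukemias. Late neutrophil markers (10 genes) summed to 69561 to 92819 in Hoxa9-Meis1, 62073 to 104871 in floxed and 89343 to 116417 in deleted leukemias. Of these 10, 3 were higher and 0 lower in deleted than in Hoxa9-Meis1 leukemias, or 30% against 15.5% of all genes. In floxed against Hoxa9-Meis1 leukemias 0 were called. Their part in the result was not tested.

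The lymphoid and other lists were low. T and NK cell markers (10 genes) summed to 2342 to 4955 in Hoxa9-Meis1, 2329 to 5010 in floxed and 1684 to 3875 in deleted leukemias. Of them 4, Cd3e, Thy1, Gzma and Klrd1, passed as higher in deleted than in floxed leukemias. These were 40% of the list, against 6.85% of all genes called in that comparison. Against Hoxa9-Meis1, 4 were higher and 0 lower in deleted leukemias, or 40% against 15.5% of all genes. In floxed leukemias 0 were higher and 1 was lower, or 10% against 8.89%. Although the sums ran lower in deleted leukemias, the difference was above 0 for 9 of the 10 genes against each other group and below 0 for 1. B cell markers (8 genes) summed to 1238 to 2527, 2376 to 3522 and 1435 to 1570 in the same order. Megakaryocyte markers (5 genes) summed to 652 to 972, 663 to 973 and 811 to 1011, and stromal and endothelial markers (6 genes) to 1407 to 2508, 1482 to 2243 and 751 to 1109. Their part in the result was not tested either.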

How the data were processed

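RNA of 9 bone marrow samples was hybridised to 1-colour Affymetrix mouse arrays, 1 array per sample. The deposited intensity of each of 45101 probe sets was made by RMA, per the submitters' processing notes; its version is not given in the sources used here, and a linear scale was read from the values. RMA includes quantile normalization, which would hide a shift shared by most genes. Here log2(intensity + 1) was taken, so fold changes of dim probe sets are understated. Names came from the platform annotation, which gave 1 symbol to 34958 probe sets, several to 932, and did not list 9211. A gene was its probe set with the highest mean. The model, with 1 mean per group over the 9 arrays, was fitted by lmFit and eBayes of limma 3.58.1 in R 4.3.3. Tests were two-sided, and p-values were adjusted by Benjamini-Hochberg across 18194 genes and called at an adjusted p under 0.05. The fit was tested on simulated data.

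The number of arrays limits the precision. Groups came from the labels; Hoxa9-Meis1 replicates were numbered in accession order. Labels do not say that arrays stand for separate mice, and the spread behind the p-values may therefore be technical. No scan date or batch was given. The genes and lists were chosen with earlier results of these data known. Named are called genes and, per role, the largest of the others; of other lists, up to 4 called genes in each direction. Alternatives were another pseudocount, a filter on dim genes, the mean of probe sets, adjustment over probe sets, repeated quantile normalization, centring within chromosomes, fits of 2 groups, array weights, trended robust variance, a replicate block and leaving out arrays.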

Additional observations from a re-analysis of the deposited data

How the results depend on the processing

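No replication gene changed sign between its reported value and an alternative where either was called. The median of the replication genes in deleted versus floxed leukemias, 0.06 (log2), was -0.0031 when arrays were centred within chromosomes, a move smaller than the spread between replicates. The counts of replication genes called were 1 in deleted versus floxed leukemias and, against Hoxa9-Meis1, 12 in floxed and 20 in deleted leukemias. Deleted versus floxed gave 2 with a pseudocount of 32, where Lig1 joined, 2 with array weights, where Pole2 joined, and 0 with only the 2 groups compared. Leaving out 1 array gave 0 in every case there, 4 to 10 in floxed versus Hoxa9-Meis1 and 9 to 17 in deleted versus Hoxa9-Meis1. All genes called ranged over these fits from 645 to 1204, from 681 to 1799 and from 1540 to 2710, against 1246, 1618 and 2821. The medians of the replication genes ranged from 0.01 to 0.07, from 0.29 to 0.46 and from 0.37 to 0.46 (log2). Without deleted replicate 6 and floxed replicate 5 together, 0 replication genes and 498 of all genes were called in deleted versus floxed, the floxed median against Hoxa9-Meis1 was 0.29, and deleted versus Hoxa9-Meis1 gave 18 higher and 1 lower, Orc1, in place of 20 and 0. Quantile normalization applied again lowered the medians against Hoxa9-Meis1 to 0.33 and 0.35 and the floxed count to 7, and with only the 2 groups compared that count was 6. Array weights raised all genes called in floxed versus Hoxa9-Meis1 to 2543. Centring within chromosomes on genes with a mean of at least 6 (log2), chosen after seeing the data, gave 1, 10 and 16. The cause of these shifts was not tested, apart from the fewer arrays of some fits.

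Same-numbered deleted and floxed arrays correlated at 0.03, 0.05 and 0.01 in their deviations from the group means, so the numbers were not taken to pair samples. With the replicate block, 0 replication genes and 599 of all genes were called in deleted versus floxed. The Hoxa9-Meis1 arrays carry no such numbers.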
